A study of Mus musculus with 6 samples.

Results

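Large ribosomal subunit protein genes were taken as the rows of the count table whose Ensembl identifier maps to a protein-coding gene named Rplp0 to Rplp2 or Rpl followed by a number, with or without a final a or x. Names ending in -ps and predicted (Gm) copies were left out. The rule found 46 of 28564 rows, and these are all 46 such genes in the annotation. RNA came from crypt epithelium of mouse small intestine, sorted as live single cells that carried EpCAM and CD44 and lacked CD31 and CD45. All mice were male and 13 weeks old: 3 samples were from wild-type C57Bl/6 mice, and 3 were from Apln-/- mice, which carry no working copy of the gene for apelin, a secreted peptide. The strain behind the Apln-/- mice was not given in the sources used here, nor was any litter. The labels call the samples biological replicates. The comparison addressed how crypt epithelium differs without apelin.

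The large subunit of the cytosolic ribosome joins amino acids into a chain at its peptidyl transferase centre, which is built of RNA, and its proteins hold that RNA in shape, line the exit tunnel and receive the translation factors. In crypts, stem cells and their dividing progeny make ribosomes at a high rate. Ribosomal protein mRNAs start with a run of pyrimidines, the 5' terminal oligopyrimidine (TOP) tract, through which mTOR signalling and the protein Larp1 set how far they are translated. Nearly all these genes also have processed pseudogenes, copies made from reverse-transcribed mRNA that can be almost identical in sequence to the parent.

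Start-site windows from RefSeq (GRCm38.p6, 250 bases before to 50 after the annotated start) were at hand for 34 of the 46 genes. A run of at least 8 pyrimidines that opens with C, on the sense strand between 30 bases before and 50 after the start, was found in 29 of these 34 (85.3%). The share was 73.9% of 23 small subunit protein genes and 26.3% of all 14650 genes of the table with a window. The 5 without such a run were Rplp0, Rpl22, Rpl23, Rpl24 and Rpl27. The following 30-base windows, 5' to 3' with the pyrimidine run in capitals, show such runs in the member that passed the test (Rpl7a), in others of low p (Rpl14, Rpl18, Rplp2), in both 5S RNP proteins (Rpl5, Rpl11) and in 2 genes with a log2 fold change below 0 that did not pass (Rpl10a, Rpl15).
Rpl7a (chr2:26910787-26910816, plus strand): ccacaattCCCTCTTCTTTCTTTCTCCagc
Rpl14 (chr9:120571501-120571530, plus strand): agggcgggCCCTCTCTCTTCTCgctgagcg
Rpl18 (chr7:45718064-45718093, plus strand): gcaggccgCTCTTTCCCCgcccactccggc
Rplp2 (chr7:141447639-141447668, plus strand): gtcagcgtCTTCCTTTCgccgccggacgcc
Rpl5 (chr5:107900500-107900529, plus strand): tacagccaCTCTTTCTCacgtcgcttgcgt
Rpl11 (chr4:136053358-136053387, minus strand): ccggaagtCTCCCTCTCTCTTCCTgttctc
Rpl10a (chr17:28328574-28328603, plus strand): gcgctctgCCTTCTTTCCggtttccgcggc
Rpl15 (chr14:18270969-18270998, minus strand): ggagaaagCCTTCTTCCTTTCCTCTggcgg
Counted from the annotated start, the first base of these runs lay between -20 (Rpl5) and 18 (Rpl10a). The run of Rpl5 ended before that start, outside the annotated mRNA, and those of Rpl11 (from 15) and Rpl10a began inside it, so that these letters do not show a run at the very 5' end of each mRNA. Of other motifs searched in the whole 300 bases on both strands, CCGGAAG, the core bound by ETS factors such as GABP, was in 14 of 34 windows (41.2%, against 15.6% of all genes). GGGCGG, the GC box, was in 23 (67.6%, against 57.95%). AAGATGG, a YY1-type core, was in 4 (11.8%, against 7.62%). TATAAA within 60 bases before the start on the sense strand was in 0 of 34, against 2.58%. A match is only a match of letters and shows no binding.

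Copies of these genes bear on every value below, because a read of 50 bases may fit the parent and a copy alike. All 46 principal transcripts shared at least 1 stretch of 50 bases with another annotated gene, from 5.19% of such windows in Rpl22 and 6.49% in Rpl8 to 93.8% in Rpl5 and 95.1% in Rpl35. In 18 genes every window of the coding sequence was shared. The coding starts below, first 60 bases from the start codon with differing bases in capitals, show how little can separate a gene from the copy that held more reads (Rpl10a), or how many bases can (Rpl7a).
Rpl10a (chromosome 17): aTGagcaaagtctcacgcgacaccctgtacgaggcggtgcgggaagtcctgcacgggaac
Rpl10a-ps1 (chromosome 1): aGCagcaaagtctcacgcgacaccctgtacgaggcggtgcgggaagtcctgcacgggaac
Rpl7a (chromosome 2): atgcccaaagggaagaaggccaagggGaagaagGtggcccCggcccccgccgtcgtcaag
Gm4786 (chromosome 17): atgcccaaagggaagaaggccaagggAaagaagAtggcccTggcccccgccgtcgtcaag
Rpl10a-ps1 differed from Rpl10a by T2G and G3C, counted from 1 at the first base of the start codon with the parent's base first. These were its only differences in 651 coding bases (99.7% identity). Gm4786 differed from Rpl7a by G27A, G34A and C41T in this stretch and at 18 of 798 coding bases (97.7% identity). For Rpl38, the 213 coding bases of Rpl38-ps2 were the same as its own:
Rpl38 (chromosome 11): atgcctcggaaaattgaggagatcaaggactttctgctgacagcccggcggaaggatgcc

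The libraries held 23046880 to 26513481 counts each. The 5 entries with most counts, both mitochondrial ribosomal RNAs among them, took 70.7% to 75.3% of the counts in wild type and 77.3% to 78.9% in Apln-/-, so 6037237 to 7616648 and 5144725 to 5623112 counts were left for all other genes. Levels below are CPM, counts relative to library size after TMM scaling, and levels between genes are compared per kilobase of principal transcript. Apln itself had 29, 7 and 5 counts in wild type and 0 in each Apln-/- library, where 0 counts allow 3. Epcam (280 to 303 CPM in wild type, 292 to 338 in Apln-/-) and Cd44 (54.0 to 63.9 and 51.3 to 68.1) were present in all libraries. Of the markers sorted against, Pecam1, which encodes CD31, had 1 to 33 counts a library. Ptprc, which encodes CD45, had 25 to 96 counts in every library and was lower in all Apln-/- libraries (1.18 to 1.80 CPM against 2.18 to 3.31 CPM in wild type), where 3 counts make 0.0946 to 0.142 CPM. The 12 immune markers together summed to 17.4 to 31.3 CPM in wild type and 18.5 to 24.6 CPM in Apln-/-, which overlapped.

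Large subunit protein genes were mostly higher in Apln-/- crypt cells. Summed over all 46, their level was 2462, 2033 and 2668 CPM in wild-type replicates 1 to 3 and 4137, 3385 and 3682 CPM in Apln-/- replicates 1 to 3. Every Apln-/- library was above every wild-type library, and wild-type replicate 2 was lowest. The means were 2388 ± 324 and 3735 ± 378 CPM (SD, n = 3 each), a 1.56-fold difference with an exact two-sided permutation p of 0.1, the smallest that 3 against 3 allows. The sum rests largely on a few genes. The 5 most abundant members made up 47.0% of the summed wild-type level, and the 5 largest member differences 45.7% of the summed difference. In bulk RNA, more cells of a type with high ribosomal protein mRNA and more such mRNA per cell cannot be told apart.

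**Figure D1:**
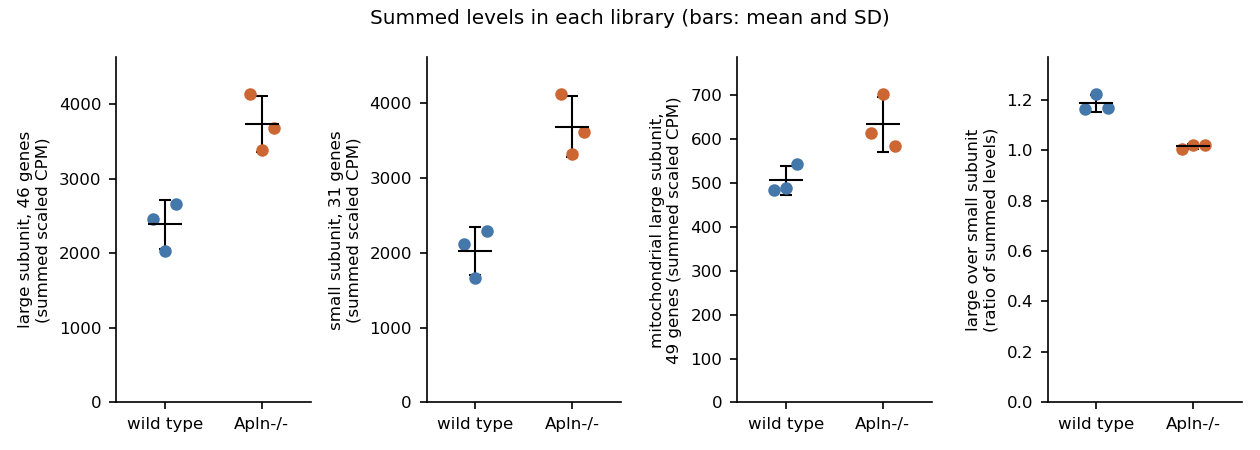
Summed TMM-scaled CPM of 46 large subunit, 31 small subunit and 49 mitochondrial large subunit protein genes, and the ratio of large to small subunit sums, in each of 3 wild-type and 3 Apln-/- libraries (points), with mean and SD (black). The large subunit points lie between 2033 and 2668 CPM in wild type and between 3385 and 4137 CPM in Apln-/-, and the ratio is lower in all Apln-/- libraries.

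Of the 46 genes, 44 passed the filter on low counts and were tested together with all 15122 genes that passed. Rpl7a rose (adjusted p = 0.0460, edgeR quasi-likelihood test with Benjamini-Hochberg adjustment over all genes), and 0 fell. At this threshold 0.112% of all genes tested were called higher and 0.0595% lower. At an unadjusted p under 0.05, 30 members were higher and 0 lower, against 7.53% of all genes higher and 7.66% lower. The groups did not overlap, with Apln-/- higher, in 32 members, against 11.3% of all genes, and with Apln-/- lower in 0, against 9.56%. The log2 fold change was above 0 in 37 of 44 members, against 49.5% of all genes, and its median was 0.58 against -0.01 over all genes. A further 10 members had an adjusted p from 0.0510 to 0.0971 and so missed the threshold. The number called moved with the analysis: 16 members were called higher by the DESeq2 Wald test (2.39% of all genes), 6 by limma-voom (0.284%), 18 with no filter on low counts (1.15%), 8 where a gene had to reach 1 CPM in 3 libraries (0.662%) and 2 with named -ps copies summed (0.119%). With DESeq2 size factors, upper-quartile scaling or a length and GC correction in the edgeR fit it was 0 (0% of all genes).

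**Figure D2:**
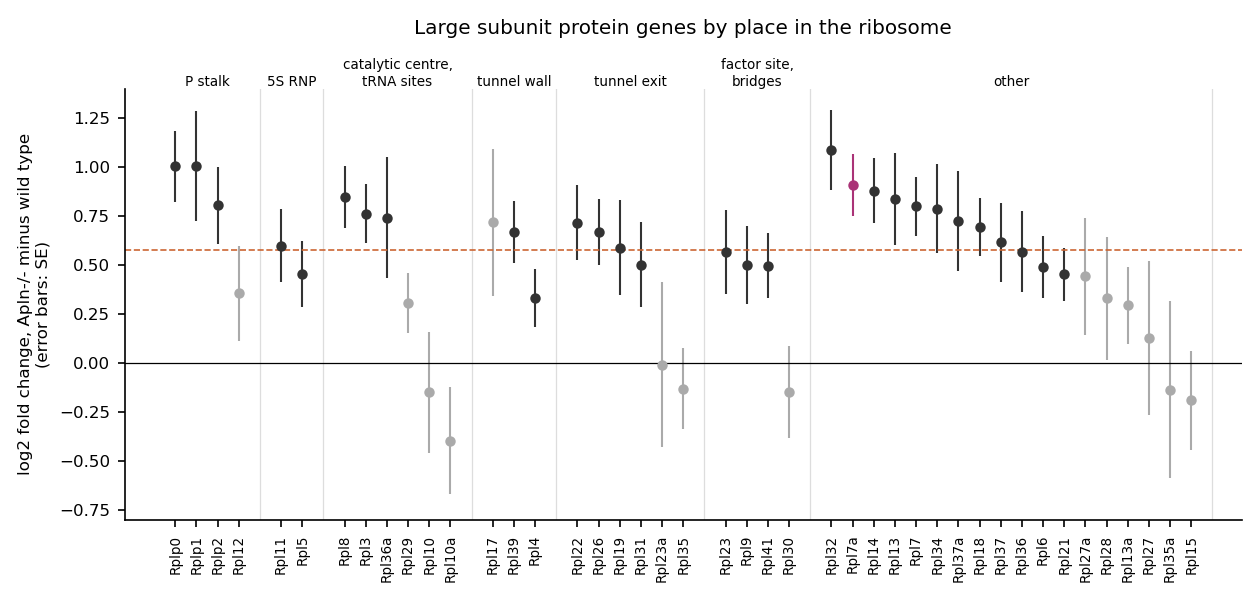
Log2 fold change (Apln-/- minus wild type, edgeR, error bars SE, n = 3 against 3) of 43 of the 44 members tested, grouped by place in the large subunit. Purple marks an adjusted p under 0.05 (Rpl7a), black an unadjusted p under 0.05 only, grey neither; the dashed line is the median of 0.58 over all 44, and 7 members lie below 0.

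Measures of composition and depth moved with genotype too. The 5 most abundant entries took more of each Apln-/- library (above), and with those entries removed before scaling the members' median was 0.57 with 0 called. Over all genes, log2 fold change fell with transcript length (Spearman's rho = -0.262 across 15111 genes, which are not independent replicates). With a per-library correction for length and GC content the members' median was 0.43, 23 were higher at an unadjusted p under 0.05 (6.4% of all genes) and 0 were called. Enteroendocrine markers summed to 1008 to 1474 CPM in wild-type libraries and 695 to 863 CPM in Apln-/- libraries. Of these 18 markers, 17 were below 0, 8 were lower and 0 higher at an unadjusted p under 0.05, and 0 were called. Tuft markers summed to 143 to 209 CPM in wild-type libraries and 59.2 to 118 CPM in Apln-/- libraries. All 16 tested were below 0, 9 were lower and 0 higher at an unadjusted p under 0.05, and 1 was called lower (Plcb2). Paneth markers summed to 764 to 1331 CPM in wild-type libraries and 1329 to 3107 CPM in Apln-/- libraries, overlapping, with 14 of 15 above 0, a median log2 fold change of 0.78 (above the members' 0.58), 9 higher at an unadjusted p under 0.05 and 0 called. Goblet markers summed to 1622 to 5198 CPM in wild-type libraries, highest in replicate 3, and to 2387 to 2631 CPM in Apln-/- libraries, with 4 of 12 lower at an unadjusted p under 0.05 and 0 called. Among them Muc2, the main secreted mucin, was at 714, 520 and 1899 CPM in wild-type replicates 1 to 3 and at 416, 540 and 581 CPM in Apln-/- replicates 1 to 3. Stem cell markers (927 to 1374 and 985 to 1783 CPM) overlapped, and no marker on these lists was at 0 in all libraries. Over all genes tested, 49.5% were above 0, and 7.53% were higher and 7.66% lower at an unadjusted p under 0.05. At the adjusted threshold 0.0595% were called lower. The part of these marker and composition shifts in the members' values was not tested.

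Rpl7a, a protein on the solvent side of the subunit, stood at 44.3, 34.3 and 38.4 CPM in wild-type replicates 1 to 3 and at 81.4, 64.97 and 73.2 CPM in Apln-/- replicates 1 to 3. All Apln-/- values were above all wild-type values, and its fitted log2 fold change was 0.91 ± 0.16 (SE). It kept its call in 7 of 17 alternative analyses, with adjusted p from 3.6e-05 (DESeq2 Wald test) to 0.331 (without Apln-/- replicate 1). Without wild-type replicate 1 or 2 or any 1 Apln-/- replicate its adjusted p missed the threshold, with adjusted p from 0.101 to 0.331.

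The P stalk, a flexible arm that draws elongation factors to the ribosome, held the members with some of the largest differences. Rplp0, the anchor on which the acidic proteins sit, was at 116, 91.05 and 132 CPM in wild-type replicates 1 to 3 and at 270.1, 195 and 214 CPM in Apln-/- replicates 1 to 3. Its log2 fold change was 1.00 ± 0.18 with an adjusted p of 0.0510, and the groups did not overlap. Rplp1, one of the acidic proteins, was at 82.1, 62.2 and 157 CPM in wild-type replicates 1 to 3 and at 240.2, 169 and 195 CPM in Apln-/- replicates 1 to 3. Wild-type replicate 3 lay close to the lowest Apln-/- library, and the log2 fold change was 1.00 ± 0.28 (adjusted p = 0.131). Rplp2, its partner in the stalk dimers, was at 27.5, 22.7 and 38.2 CPM in wild-type replicates 1 to 3 and at 58.5, 45.2 and 50.7 CPM in Apln-/- replicates 1 to 3. It too was separated (log2 fold change 0.81 ± 0.20, adjusted p = 0.0971). Rpl12, which binds at the stalk base, was at 5.99, 4.96 and 7.25 CPM in wild-type replicates 1 to 3 and at 8.86, 6.18 and 8.27 CPM in Apln-/- replicates 1 to 3. Its groups overlapped (log2 fold change 0.36 ± 0.24, adjusted p = 0.534), and its row held only 6.89% of the reads of Rpl12 and its copies.

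The 5S RNP is formed by Rpl5, Rpl11 and 5S ribosomal RNA, and when it is not built into ribosomes it binds Mdm2 and so stabilises p53. Rpl5 was at 13.5, 14.2 and 11.8 CPM in wild-type replicates 1 to 3 and at 18.1, 17.6 and 18.5 CPM in Apln-/- replicates 1 to 3. Rpl11 was at 13.5, 10.7 and 13.4 CPM in wild-type replicates 1 to 3 and at 19.9, 15.9 and 21.3 CPM in Apln-/- replicates 1 to 3. In both, every Apln-/- library was above every wild-type library, with log2 fold changes of 0.46 ± 0.17 and 0.60 ± 0.19 (adjusted p = 0.231 and 0.164). Of 8 genes around this axis, 0 were called by edgeR, and their median log2 fold change was -0.03. At an unadjusted p under 0.05, 1 was higher and 0 lower, against 7.53% and 7.66% of all genes. The 1 was Rpf2, which helps load the 5S RNP, at 6.86 ± 1.41 and 12.6 ± 2.03 CPM (SD, n = 3 each). Mdm4 and Trp53 had log2 fold changes of -0.27 and -0.34 with adjusted p of 0.390 and 0.406.

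Around the catalytic centre and the tRNA sites, 4 of 6 members were above 0 and 2 below. Rpl8, which reaches close to the peptidyl transferase centre, was at 159, 131 and 150.3 CPM in wild-type replicates 1 to 3 and at 302, 233 and 259 CPM in Apln-/- replicates 1 to 3. Rpl3, whose extension also nears the centre, was at 31.5, 29.96 and 36.99 CPM in wild-type replicates 1 to 3 and at 59.1, 50.4 and 57.5 CPM in Apln-/- replicates 1 to 3. Both were higher in every Apln-/- library, with log2 fold changes of 0.85 ± 0.16 and 0.76 ± 0.15 and adjusted p of 0.0517 and 0.0556. Rpl8 is also among the members with least shared sequence. Rpl10, which joins late in the subunit's maturation, was at 8.33, 8.06 and 3.50 CPM in wild-type replicates 1 to 3 and at 6.14, 5.95 and 5.81 CPM in Apln-/- replicates 1 to 3. Wild-type replicate 3 was low and replicates 1 and 2 were above all Apln-/- libraries, so that the log2 fold change was -0.15 ± 0.31. Rpl10a, part of the L1 stalk beside the exit-site tRNA, was at 5.48, 5.41 and 8.20 CPM in wild-type replicates 1 to 3 and at 4.22, 4.24 and 6.05 CPM in Apln-/- replicates 1 to 3. Its groups overlapped and its log2 fold change of -0.40 ± 0.27 was the lowest of all members tested (adjusted p = 0.538). Rpl36a, near the tRNA exit site, and Rpl29 had log2 fold changes of 0.74 and 0.31 with separate groups.

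Proteins that line the tunnel through which the new chain leaves were all higher on average in Apln-/-. Rpl4, which forms its narrowest stretch together with Rpl17, was at 424, 377 and 387 CPM in wild-type replicates 1 to 3 and at 536, 451 and 507 CPM in Apln-/- replicates 1 to 3. It was among the most abundant members, and its groups were separate by a small step (log2 fold change 0.33 ± 0.15, adjusted p = 0.312). Rpl17 was at 2.38, 1.21 and 1.73 CPM in wild-type replicates 1 to 3 and at 3.19, 2.72 and 2.84 CPM in Apln-/- replicates 1 to 3. These were values near the low end, from 35 to 68 counts a library, again without overlap (log2 fold change 0.72 ± 0.38, adjusted p = 0.397). Rpl39, a very short protein of the lower tunnel, was at 58.2, 42.3 and 49.3 CPM in wild-type replicates 1 to 3 and at 85.6, 76.04 and 76.5 CPM in Apln-/- replicates 1 to 3. Its log2 fold change was 0.67 ± 0.16 with an adjusted p of 0.0911, and the groups did not overlap.

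At the tunnel exit, where chaperones and the signal recognition particle dock, 4 of 6 members were separate and higher in Apln-/-. Rpl26 was at 26.4, 20.7 and 30.5 CPM in wild-type replicates 1 to 3 and at 42.4, 38.3 and 43.00 CPM in Apln-/- replicates 1 to 3 (log2 fold change 0.67 ± 0.17, adjusted p = 0.101). The others were Rpl22, Rpl19 and Rpl31, with log2 fold changes of 0.72, 0.59 and 0.50. Rpl23a, the main docking site of the signal recognition particle, was at 2.58, 1.10 and 2.996 CPM in wild-type replicates 1 to 3 and at 2.11, 2.12 and 2.41 CPM in Apln-/- replicates 1 to 3. Rpl35, its neighbour at the exit, was at 18.4, 17.2 and 11.8 CPM in wild-type replicates 1 to 3 and at 15.5, 12.1 and 15.8 CPM in Apln-/- replicates 1 to 3. Both overlapped, with log2 fold changes of -0.01 ± 0.42 and -0.13 ± 0.21. Exons of Rpl35 overlap those of Wdr38 and Arpc5l on the opposite strand. With a strand setting not given in the sources used here, reads of these genes cannot be told apart. In all, 11 members had an opposite-strand exon overlap and the same limit: Rpl5, Rpl10a, Rpl12, Rpl15, Rpl18, Rpl23a, Rpl28, Rpl30, Rpl31, Rpl32 and Rpl35.

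At the factor site and the bridges to the small subunit, Rpl41, the smallest protein of the ribosome, was at 249, 191 and 279.8 CPM in wild-type replicates 1 to 3 and at 362, 318 and 337 CPM in Apln-/- replicates 1 to 3. The groups were separate with a log2 fold change of 0.50 ± 0.17 (adjusted p = 0.196). Rpl23, where the antiassociation factor Eif6 binds, and Rpl9, near the factor site, had log2 fold changes of 0.57 and 0.50, also with separate groups. Rpl30, a bridge protein, was at 8.93, 6.20 and 9.59 CPM in wild-type replicates 1 to 3 and at 8.39, 6.74 and 7.18 CPM in Apln-/- replicates 1 to 3 and overlapped (log2 fold change -0.15 ± 0.23). Rpl24, another bridge protein, failed the filter with 12, 9 and 9 counts in wild type and 8, 6 and 20 in Apln-/-. Its exons overlap Gm28037 on the same strand, so that the low count is of the reads assigned to its row alone.

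The other 20 members included several of the lowest p after Rpl7a. Rpl32 had the largest log2 fold change of all members, 1.09 ± 0.20 (adjusted p = 0.0517), and was at 172, 108 and 195 CPM in wild-type replicates 1 to 3 and at 364, 317 and 327 CPM in Apln-/- replicates 1 to 3. Rpl14 was at 81.5, 68.1 and 92.5 CPM in wild-type replicates 1 to 3 and at 169, 128 and 149 CPM in Apln-/- replicates 1 to 3. Rpl7 was at 55.1, 45.3 and 51.2 CPM in wild-type replicates 1 to 3 and at 96.6, 87.9 and 79.3 CPM in Apln-/- replicates 1 to 3. All 3 genes were higher in every Apln-/- library than in any wild-type library, and for Rpl14 and Rpl7 the log2 fold changes were 0.88 ± 0.17 and 0.80 ± 0.15 (adjusted p = 0.0517 for both). Rpl18 was at 60.3, 58.95 and 68.3 CPM in wild-type replicates 1 to 3 and at 110.2, 90.99 and 102 CPM in Apln-/- replicates 1 to 3. Its groups were also separate, with a log2 fold change of 0.69 ± 0.15 (adjusted p = 0.0672). Of the 19 tested in this group, 17 were above 0, 13 were higher at an unadjusted p under 0.05, and 13 had separate groups. Among them, Rpl13 (0.84), Rpl34 (0.79), Rpl37a (0.72), Rpl37 (0.62), Rpl36 (0.57), Rpl6 (0.49) and Rpl21 (0.45) had separate groups, by log2 fold change. Rpl27a (0.44), Rpl28 (0.33), Rpl13a (0.29) and Rpl27 (0.13, and -0.02 with the length and GC correction) overlapped.

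Members that departed from the rest were Rpl15, Rpl35a and Rpl38. Rpl15, embedded in the subunit's RNA, was at 17.4, 14.9 and 12.05 CPM in wild-type replicates 1 to 3 and at 18.2, 11.6 and 8.98 CPM in Apln-/- replicates 1 to 3. Apln-/- replicate 1 was the highest of all libraries and replicate 3 the lowest, and the log2 fold change was -0.19 ± 0.25. Rpl35a was at 1.55, 1.34 and 3.22 CPM in wild-type replicates 1 to 3 and at 2.11, 1.29 and 2.17 CPM in Apln-/- replicates 1 to 3, with wild-type replicate 3 highest and a log2 fold change of -0.14 ± 0.45. Rpl38, known for its part in the translation of Hox mRNAs, failed the filter with 15, 5 and 21 counts in wild type and 5, 7 and 7 in Apln-/-, which overlapped. None of the 7 members with a log2 fold change below 0 had an unadjusted p under 0.05 or separate groups.

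**Figure D3:**
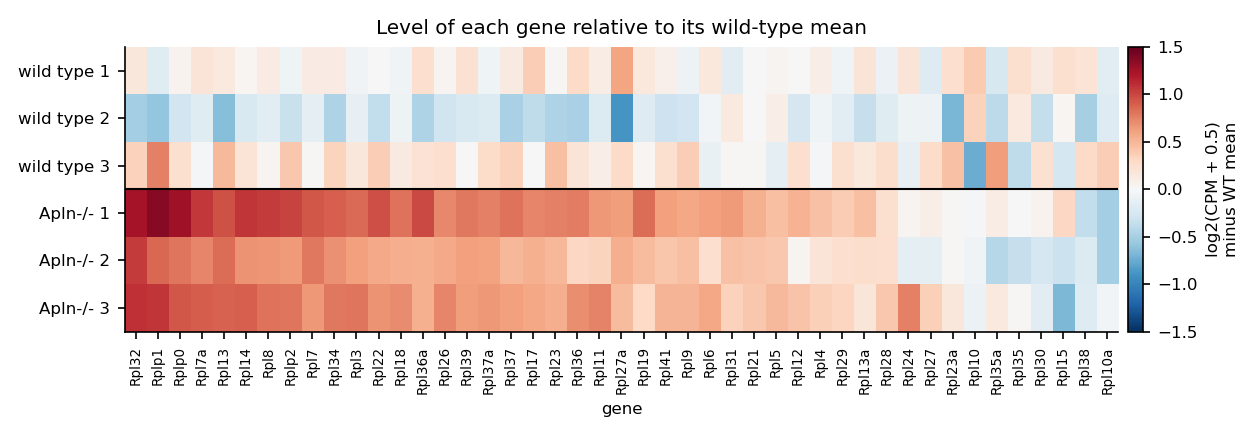
Level of 45 of the 46 genes in each library as log2(CPM + 0.5) minus the gene's wild-type mean (colour), ordered by the Apln-/- mean. Over all 46, wild-type replicate 2 was the lowest library for 35 genes and Apln-/- replicate 1 the highest for 33.

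Libraries within a group did not stand alike. Wild-type replicate 2 was the lowest of all 6 libraries for 35 of 46 genes, and Apln-/- replicate 1 the highest for 33. Among the wild-type libraries, replicate 3 was highest for 27 genes. Without wild-type replicate 3, 14 members were called higher instead of 1 (1.61% of all genes), and 358 genes in all instead of 26. That library also held the highest goblet marker sum, 5198 CPM against 1622 to 2641 CPM in the other wild-type libraries, and the part of this in the calls was not tested. Leaving out any other library left 0 members called (at most 0.00623% of all genes).

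Among 31 small subunit protein genes, 3 were called higher (0.112% of all genes), Rps10 and Rps3 among them. The median log2 fold change of the 31 was larger, 0.72. Their summed level was 2115, 1664 and 2285 CPM in the wild-type libraries and 4122, 3319 and 3611 CPM in Apln-/-, a 1.82-fold difference in means. The ratio of large to small subunit sums was 1.16, 1.22 and 1.17 in wild type and 1.00, 1.02 and 1.02 in Apln-/-. All Apln-/- ratios were lower (means 1.18 ± 0.0324 and 1.01 ± 0.00937, SD, n = 3 each, exact two-sided permutation p = 0.1, the smallest possible). Leaving out a library cannot change this order, since each ratio comes from its own library alone. The order held under the length and GC correction, where the Apln-/- over wild-type quotient of the ratio went from 0.856 to 0.839. The 49 mitochondrial large subunit protein genes, which serve a separate ribosome, summed to 484 to 544 CPM in wild-type libraries and 583 to 702 CPM in Apln-/- libraries, with a median log2 fold change of 0.37 over 47 tested. The ratio of cytosolic to mitochondrial large subunit sums overlapped between groups (means 4.72 ± 0.489 and 5.96 ± 1.01, exact permutation p = 0.3).

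Single genes took different shares of the large subunit sum, a measure free of library scaling. In 5 genes the share was higher in every Apln-/- library (Rpl14, Rpl32, Rpl7a, Rpl8 and Rplp0). In 10 it was lower (Rpl4, Rpl10a, Rpl12, Rpl13a, Rpl15, Rpl28, Rpl29, Rpl30, Rpl35 and Rpl35a). With groups assigned at random, a value separates fully in either direction with a probability of 0.1. No count over other genes was made for shares. By level, 11.3% of all genes tested were separate and higher in Apln-/-, and 9.56% separate and lower. Rpl32 made up 6.997%, 5.29% and 7.31% in wild type and 8.81%, 9.36% and 8.89% in Apln-/-. Rplp0 made up 4.71%, 4.48% and 4.93% in wild type and 6.53%, 5.77% and 5.81% in Apln-/-. Rpl4 went the other way, at 17.2%, 18.5% and 14.5% in wild type and 12.96%, 13.3% and 13.8% in Apln-/-. Shares of one sum depend on each other, so a lower share does not mean a lower level: Rpl4, Rpl29 and Rpl12 had log2 fold changes above 0. Without wild-type replicate 3 the number of genes with separate shares was 25 instead of 15. Leaving out a library can only keep or raise this number, so the rise alone says little about that library.

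Wild-type levels per kilobase spanned a range from Rpl41 (412 CPM per kb), Rpl4 (257) and Rplp1 (201) at the top to Rpl17 (1.34), Rpl38 (1.04) and Rpl24 (0.527) at the bottom. The members' proteins are built into the subunit in equal number, apart from the P stalk dimers, yet 8 genes were above 100 CPM per kb and 17 under 10. The median level was lower among genes that share more sequence. It was 43.3 CPM per kb in 15 genes with under 40% of windows shared, 15.1 in 17 genes with 40% to 75% and 9.01 in 14 genes with over 75%. Spearman's rho between level and shared windows was -0.349 over 46 genes, which share libraries. The 4 lowest rows, Rpl24, Rpl38, Rpl17 and Rpl28, held at most 6.98% of their families' reads (defined below), while the next lowest, Rpl27 and Rpl35a, held 67.6% and 70.7%. Of 7 members with a log2 fold change below 0, 5 were among the 14 with over 75% of windows shared.

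**Figure D4:**
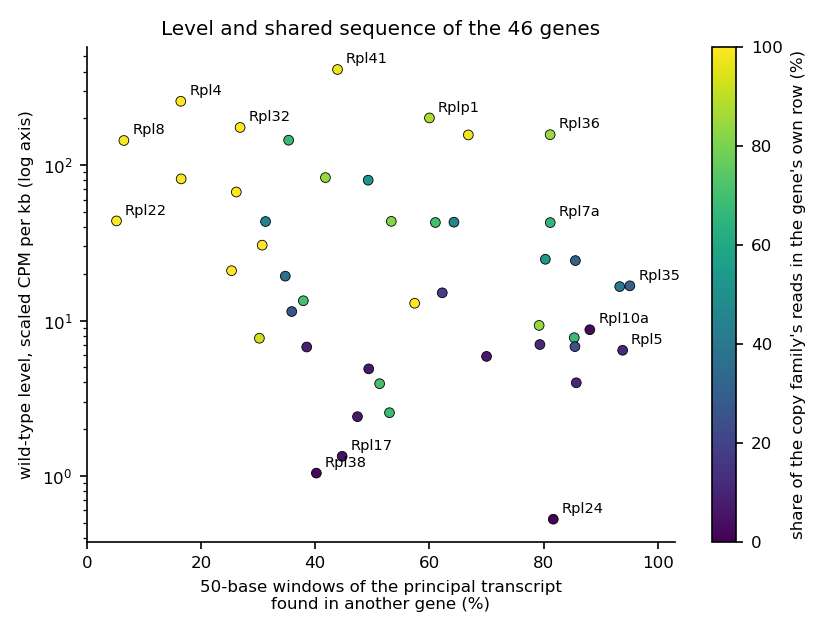
Wild-type level per kb (log axis) against the share of 50-base windows found in another gene, for 46 genes, with colour for the share of the reads of gene and copies that lay in the gene's own row. The 3 lowest points are dark: Rpl24 held 0.447%, Rpl38 1.99% and Rpl17 5.05% of their families' reads.

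Rows of copies held many of the reads. For each member a family was formed, in an analysis chosen after seeing the data, from its row and those of separate ribosomal-protein-named or predicted genes that share at least 25% of its windows. In 20 of 46 families the member's own row held the smaller part of the reads, and over all families member rows held 63.7%. Rpl10a-ps1 stood at 198 ± 51.5 CPM in the wild-type group and 245 ± 26.5 CPM in the Apln-/- group (mean ± SD, n = 3 each), against 6.36 ± 1.59 and 4.84 ± 1.05 CPM in the row of Rpl10a. Rpl31-ps8 stood at 104 ± 11.4 CPM in the wild-type group and 143 ± 5.87 CPM in the Apln-/- group (mean ± SD, n = 3 each), against 6.16 ± 0.732 and 8.74 ± 0.957 CPM in that of Rpl31. Gm9385, a copy of Rpl24, stood at 43.1 ± 11.1 CPM in the wild-type group and 77.9 ± 10.9 CPM in the Apln-/- group (mean ± SD, n = 3 each). These copies lay above the parent's row in both groups. Of 60 copies that passed the filter, 57 had a log2 fold change above 0 with a median of 0.71, 37 were higher and 0 lower at an unadjusted p under 0.05, and 1 was called (Gm8730, a copy of Rplp0, log2 fold change 0.97, adjusted p = 0.0460). Over all genes tested, 49.5% were above 0, 7.53% were higher and 7.66% lower at an unadjusted p under 0.05, and 0.112% were called higher. Since copy and parent can share reads, the values of the copies are not separate evidence of the difference.

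With each family summed, all 46 members could be tested, and 44 had a log2 fold change above 0, with a median of 0.63. Of these 38 were higher and 0 lower at an unadjusted p under 0.05 (7.4% of all genes were higher), and 1 was called, against 0.106% of all genes. It was Rpl17, whose family had a log2 fold change of 1.04 (adjusted p = 0.0458), while the family of Rpl7a had 0.85 (adjusted p = 0.0506). Of the 7 members below 0, 5 were above 0 with copies: Rpl10a (0.29), Rpl23a (0.60), Rpl35 (0.53), Rpl35a (0.27) and Rpl10 (0.11). Rpl15 (-0.16) and Rpl30 (-0.08) remained below 0. The genes that fail the filter alone had family log2 fold changes of 0.81 (Rpl24, adjusted p = 0.0970) and 0.55 (Rpl38, adjusted p = 0.216). For the 9 members without a copy at this limit (Rpl4, Rpl8, Rpl13a, Rpl18, Rpl21, Rpl22, Rpl32, Rpl39 and Rplp2) own row and family are the same, and all 9 had a log2 fold change above 0, from 0.29 in Rpl13a to 1.09 in Rpl32. The 9 are not free of copies that share less. Named -ps rows held 28.2% of the reads of Rpl18 and its -ps rows, and 21.2% for Rpl39. With these summed, the log2 fold changes were 0.70 and 0.67. In Rpl21 every coding window was shared.

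**Figure D5:**
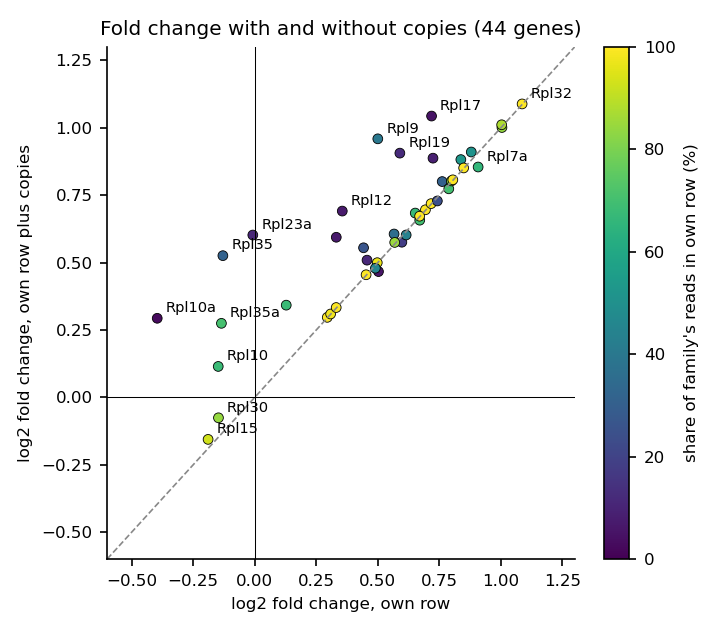
Log2 fold change (Apln-/- minus wild type) of 44 genes from the gene's own row (horizontal) and with its copies summed (vertical), coloured by the share of family reads in the own row, with the line of equality dashed. Rpl10a moves from -0.40 to 0.29 and Rpl35 from -0.13 to 0.53, while Rpl15 and Rpl30 stay below 0.

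Genes that act on the large subunit or share its regulation were then read from lists. Over all genes tested, 0.112% were called higher and 0.0595% lower, and 7.53% were higher and 7.66% lower at an unadjusted p under 0.05. Of 45 listed assembly factors, mostly of the large subunit, 0 were called in either direction by edgeR (2 higher and 0 lower at an unadjusted p under 0.05). Their median log2 fold change was -0.03. Their summed level, 549.9 to 564 CPM in wild-type libraries and 551 to 589.7 CPM in Apln-/- libraries, overlapped. Of 21 other mRNAs with a TOP tract, 2 were called higher and 0 lower, with a median of 0.34. They were Rack1, a scaffold on the small subunit (209 ± 35.1 and 448 ± 46.4 CPM, SD, n = 3 each, adjusted p = 0.0460), and Eef1g, an elongation factor subunit (113 ± 7.96 and 202 ± 16.3 CPM, adjusted p = 0.0460). Of 17 regulators of TOP mRNAs, 0 were called by edgeR (1 higher and 3 lower at an unadjusted p under 0.05), with a median of -0.02. Larp1, which binds the TOP tract, was at 109 ± 16.6 and 69.8 ± 2.56 CPM (log2 fold change -0.65, adjusted p = 0.0926). Of 8 paralogues and related genes of the large subunit, 4 could be tested and all 4 were above 0, among them Rpl22l1 (0.85), with 0 called by edgeR (3 higher and 0 lower at an unadjusted p under 0.05).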

How the data were processed

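Per the labels' protocols, RNA from 3 wild-type and 3 Apln-/- samples was amplified (Ovation Pico WTA System V2) and made into Nextera DNA Flex libraries. The authors deposited raw counts per gene, not normalized. The submitters' processing notes name STAR 2.6.1, HTSeq and mm10; the strand setting and the handling of reads with several alignments were not given in the sources used here. GENCODE vM21 gave symbols, transcripts and coordinates, and RefSeq the promoter windows.

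The counts were tested with edgeR 4.0.16 under R 4.3.3: filterByExpr (count minimum 10, total minimum 15), TMM scaling, the quasi-likelihood test and Benjamini-Hochberg adjustment with a threshold of 0.05. The fit was tested on simulated data. Alternatives used DESeq2 1.42.0, limma 3.58.1 and mgcv 1.9.3 (smooths for length and GC content). Single values per library were compared by exact permutation. All p-values set a difference between groups against the spread between these samples, those of permutation by reassigning samples to groups.

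Members, lists and tests were chosen with earlier results of these data known. Every library's value is given for members that passed the threshold, had the 12 lowest p, a negative log2 fold change, the 3 highest or lowest levels per kilobase, failed the filter, or belong to the P stalk or 5S RNP. On other lists, genes called and up to 3 of lowest p could be named. Copies were named after their values were seen. Values of some genes that these rules name are not reported here; all counts and sums include them.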

Additional observations from a re-analysis of the deposited data

How the results depend on the processing

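The members' median log2 fold change stayed above 0 in all 17 alternatives (0.43 with the length and GC correction to 0.66; 0.48 to 0.66 with 1 library left out). The summed level stayed 1.45 to 1.67 times as high in Apln-/- with 1 library left out, and the large to small subunit ratio 0.849 to 0.870 times. Counts of calls did depend on the processing, and the cause was not tested. Against 1 member and 26 genes called in the analysis as reported, 0 members and 1 gene were called with DESeq2 size factors, upper-quartile scaling, removal of the 5 most abundant entries, or the length and GC correction. There were 16 and 581 with the DESeq2 Wald test, 6 and 56 with limma-voom, 18 and 629 with no filter, and 8 and 117 with at least 1 CPM in 3 libraries. With named -ps copies summed, 2 members were called. With 1 library left out, 0 to 14 members and 0 to 358 genes were called. Then 17 to 25 genes had separate shares (15 with all libraries), a number that leaving out a library can only keep or raise. The 25 was without wild-type replicate 3.

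The labels do not say whether replicate numbers pair the samples, and the analysis as reported did not pair them. The Apln-/- columns of the count table are not numbered as the replicates are, so a shared replicate number may not mark a pair. Same-numbered libraries' deviations correlated at 0.0406, 0.0569 and 0.0109, and those with different numbers at -0.0518 to 0.0169. Of the 6 libraries, 5 correlated best with their own replicate number. Wild-type replicate 3 and Apln-/- replicate 2, whose column headers share a number, correlated at -0.00994. With the replicate number as a block, 12 members were called higher and 0 lower. Of 15122 genes tested, 173 were called, 118 of them higher. Whether the block reflects a real pairing was not tested.

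Among the 44 members tested, the direction turned in 6 with a log2 fold change below 0 and in Rpl27 (0.13). Rpl27 was -0.0244 with the length and GC correction and ran from -0.0387 to 0.33 with 1 library left out. Rpl10 was 0.10 with named copies and 0.11 with families summed, Rpl10a 0.29 and 0.29, Rpl35a 0.22 and 0.27, Rpl23a 0.51 and 0.60, and Rpl35 0.53 with families summed. With 1 library left out, Rpl10 ran from -0.45 to 0.037, Rpl15 from -0.52 to 0.020, Rpl23a from -0.34 to 0.28 and Rpl35a from -0.37 to 0.37. Rpl23a was 0.00365 with upper-quartile scaling, 0.11 with limma-voom and 0.093 with the replicate block. Rpl24 and Rpl38 had the fewest counts in their own rows, 64 and 60 over all libraries. Their families held 14322 and 3022 counts.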
